A study of Rattus norvegicus with 7 samples.

Results

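The BMP antagonist gene Chrdl1 and 7 genes of bone morphogenetic protein (BMP) signalling were followed across lens opacity in the Ihara Cataract Rat (ICR), whose lens becomes opaque with age. The 8 genes are Chrdl1, the ligands Bmp4 and Bmp7, the receptor Bmpr1a, the target genes Id1, Id2 and Id3, and the inhibitor Smad7. They were found by gene symbol among 18166 genes named on the array, and each had 1 transcript cluster, the set of probes that measures a gene. The genes were chosen from the values of these same arrays, which include the high Chrdl1 values of the oldest lenses, so that their values are given as a description and without a test. Total RNA of ICR/Ihr lenses was hybridized to 7 arrays, 1 for each age. The lenses without cataracts were 2 and 4 weeks old, those with cortical opacity 8 and 10 weeks old, the lens with posterior subcapsular opacity 12 weeks old, and those with nuclear opacity 14 and 18 weeks old. No agent was given to any group, and every array is of the cataract strain, so that a lens of the same age without the cataract trait is not part of the comparison. The study's methods state that the rats were male, and the labels state that the lens was taken from culture medium before it was ground. How many lenses or animals went into an array was not given in the sources used here. Stage and age run together and cannot be told apart, and the spread within a stage is that between 2 lenses of different age. In whole lenses, fewer cells of a type and less RNA per cell cannot be told apart either.

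BMPs are secreted ligands that bring together type I and type II receptor kinases, of which Bmpr1a is a type I receptor. The receptors phosphorylate Smad1, Smad5 and Smad9, which enter the nucleus with Smad4 and switch on targets such as the Id genes. The Id proteins bind basic helix-loop-helix factors and keep them off DNA. Antagonists such as noggin, chordin and the chordin-like protein Chrdl1 hold the ligands outside the cell, and the inhibitory Smads, Smad6 and Smad7, act inside it. In mice, Bmp4 and Bmp7 are needed to form the lens, and BMP signalling also takes part in the differentiation of lens fibre cells. In humans, loss of CHRDL1 leads to an enlarged cornea.

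Upstream sequences of 3 members are shown because they stand for the steps of the pathway that the results compare, the antagonist, a ligand that it binds and a target gene. The table of RefSeq upstream regions used here (assembly GRCr8) matched 7 of the 8 members, and Bmp7 was not matched. Each region ends at 1 transcript start chosen in that table, which need not be the outer end of the gene. The 250 bases upstream of that start lie at chrX:111789662-111789911 on the minus strand for Chrdl1, at chr15:22101934-22102183 on the minus strand for Bmp4 and at chr3:161671314-161671563 on the plus strand for Id1. The Bmp4 stretch lies inside the annotated gene (chr15:22098191-22113145), and those of Chrdl1 and Id1 partly overlap the outer end of the gene. Capitals mark the Smad box GTCT, read on both strands, where it appears as GTCT or AGAC.
Chrdl1: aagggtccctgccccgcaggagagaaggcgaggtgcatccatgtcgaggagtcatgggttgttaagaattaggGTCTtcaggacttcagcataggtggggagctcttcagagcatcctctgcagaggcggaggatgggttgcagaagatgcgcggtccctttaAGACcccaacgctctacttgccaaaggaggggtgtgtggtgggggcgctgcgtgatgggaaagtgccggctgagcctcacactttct
Bmp4: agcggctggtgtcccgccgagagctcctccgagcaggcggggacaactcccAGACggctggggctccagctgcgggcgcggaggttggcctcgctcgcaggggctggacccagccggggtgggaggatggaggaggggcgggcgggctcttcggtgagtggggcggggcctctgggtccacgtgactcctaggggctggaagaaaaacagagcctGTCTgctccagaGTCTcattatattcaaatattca
Id1: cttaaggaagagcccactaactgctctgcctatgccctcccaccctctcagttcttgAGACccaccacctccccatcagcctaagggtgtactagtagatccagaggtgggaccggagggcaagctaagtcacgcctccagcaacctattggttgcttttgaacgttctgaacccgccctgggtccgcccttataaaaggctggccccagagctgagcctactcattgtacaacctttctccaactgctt
The Chrdl1 stretch held 2 matches, which began at -177 and -87 from the start. The Bmp4 stretch held 3, at -199, -35 and -23, and the Id1 stretch held 1 at -193. Of the 7 members with a sequence 6 held at least 1 match, all but Id3, while 84.0% of 33469 rat upstream regions of this length did. The other BMP element searched, the GC-rich hexamer GGCGCC, which reads the same on both strands, was found in 1 member, Smad7, with matches at -96 and -36, and in 8.69% of all regions. The matches are a description of the letters and were not set against expression.

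The signals were log2 values that the authors normalized by Robust Multi-array Average (RMA), a method that corrects background, equalizes the arrays and summarizes the probes of a cluster. The array medians lay between 2.998 and 3.078, and the floor of the study's methods, a log2 value of 5, was reached by 5168 genes on 1 array or more. The lens label was borne out by the fibre markers, since all 7 named ones, such as Grifin and Crygs, lay above that floor on every array. Of the lens epithelium markers 7 of 8 reached the floor, and Krt18 did not. Of the markers of muscle and of corneal epithelium 1 each reached it. None of the markers named for immune cells (8), blood cells (2), endothelium (4) or photoreceptors (5) reached it. In contrast, all 10 named markers of the ciliary body and zonule reached it, some of them, such as Zic1 and Zic2, in the 2-week-old lens alone. The ciliary body, pigment cell and endothelium lists had their highest summed signal in the 2-week-old lens. The same held for the lens fibre, lens epithelium, immune cell and photoreceptor lists. Values of the ciliary body, pigment cell, endothelium and lens lists are given beside the ligands.

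Chrdl1 had higher values in every opaque lens than in the lenses without cataracts. Its log2 value was 5.39 at 2 weeks and 5.26 at 4 weeks, 5.99 at 8 weeks and 6.43 at 10 weeks, 6.32 at 12 weeks, and 7.19 at 14 weeks and 7.18 at 18 weeks. The stages did not overlap, except that the 12-week-old lens lay between the 8- and 10-week-old lenses. The difference to the lenses without cataracts was 0.88 ± 0.16 on the log2 scale (± SE of the limma fit, with 2 arrays in each of these stages) in cortical opacity, a 1.85-fold difference. It was 0.998 in the 12-week-old lens (1 array against 2) and 1.86 ± 0.16 in nuclear opacity, a 3.63-fold difference. Nuclear opacity lay 0.97 above cortical opacity. The values did not climb evenly with age. The step from 12 to 14 weeks (0.86) and that from 4 to 8 weeks (0.73) were the largest of the 6 steps between neighbouring ages. These steps span unequal times and are not given per week, so that their sizes do not rank the rates of change. The 2- and 4-week-old lenses were only 0.13 apart and the 14- and 18-week-old lenses 0.0045. Within cortical opacity the 8- and 10-week-old lenses were 0.44 apart, the widest gap within a stage, and the 10- and 12-week-old lenses lay only 0.11 apart. The cortical difference moved with the lens that stood for the stage, and it was 0.66 with the 8-week-old lens alone and 1.10 with the 10-week-old lens alone.

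**Figure D1:**
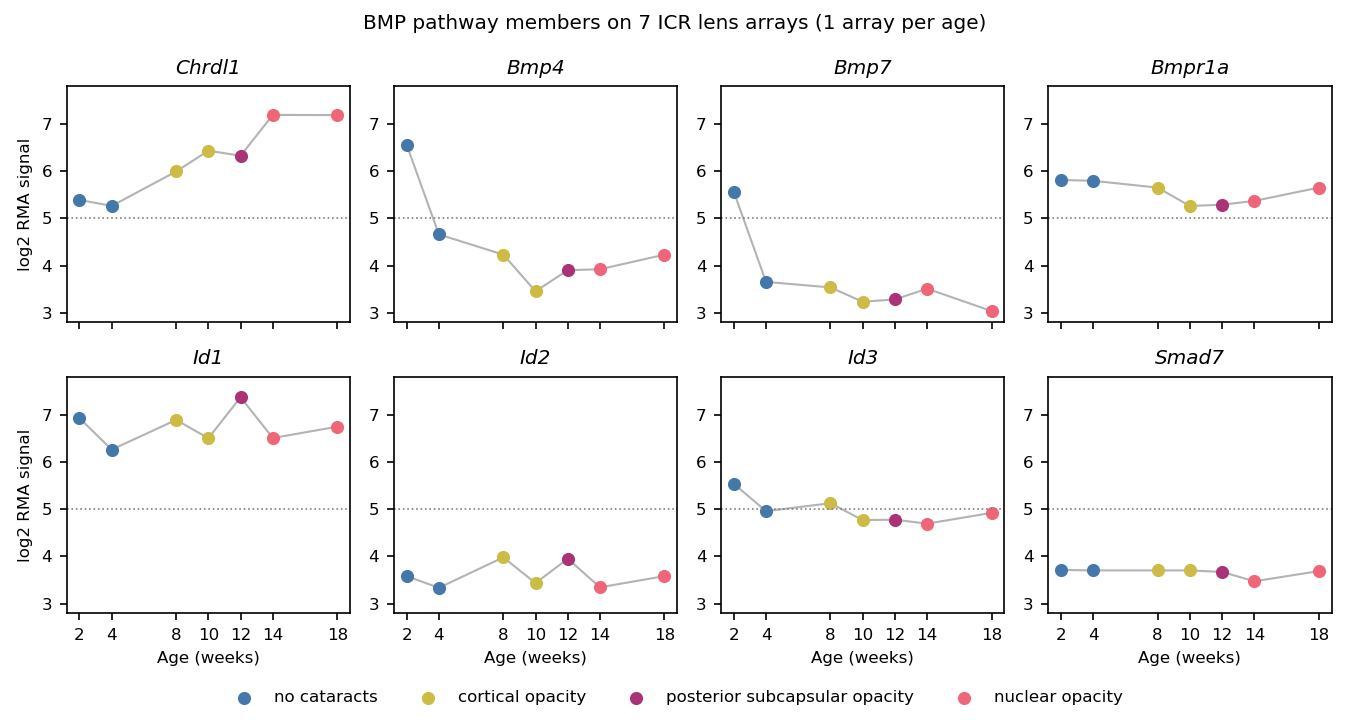
log2 RMA signal (vertical axis) of the 8 genes against age in weeks (horizontal axis), 1 point per array, coloured by stage, with a dotted line at the floor of 5. Chrdl1 goes from 5.39 at 2 weeks to 7.18 at 18 weeks, Bmp4 and Bmp7 are highest at 2 weeks, and Id1 is highest at 12 weeks.

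The genes most like Chrdl1 over the 7 arrays were picked out by their profiles. Likeness was measured among the 5168 genes as the root mean square difference between 2 profiles over the 7 arrays, each centred on its own mean. The nearest genes were Dapl1 (0.13), Cavin3, a coat protein of caveolae (0.16), Emp2, an epithelial membrane protein (0.17), Ntn4, a netrin of basement membranes (0.17), and Cpm, a membrane carboxypeptidase (0.19). For all 5 the opaque lenses lay above both lenses without cataracts, which follows from their being chosen for likeness to Chrdl1. Dapl1 was at 8.57 and 8.51 in the 2- and 4-week-old lenses, at 9.09, 9.34 and 9.30 from 8 to 12 weeks, and at 10.06 and 10.26 in the 14- and 18-week-old lenses. It shared with Chrdl1 the small drop from 10 to 12 weeks and the step up at 14 weeks. Crim1, the further BMP antagonist described with the wider pathway, was in place 233 (0.53), and the members were farther from the profile. By rank of likeness Id1 was the closest member among those that reached the floor, in place 3058 (0.78), and Bmp4 the farthest, in place 5121 (1.49).

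**Figure D2:**
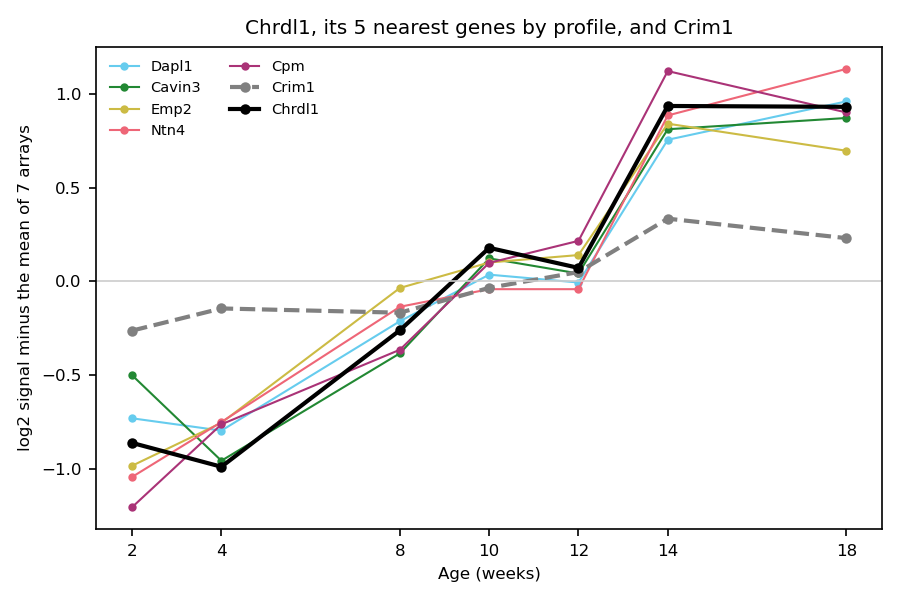
log2 signal minus the mean over the 7 arrays (vertical axis) against age in weeks (horizontal axis), for Chrdl1 (black), its 5 nearest genes (colours) and Crim1 (grey, dashed). The nearest genes lie within a root mean square difference of 0.19 of Chrdl1, and Crim1 follows a flatter course (0.53).

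Bmp4 and Bmp7, the ligands, were highest in the 2-week-old lens and far lower from 4 weeks on. Bmp4 was at 6.56 at 2 weeks and 4.66 at 4 weeks, at 4.23 and 3.46 at 8 and 10 weeks, at 3.90 at 12 weeks, and at 3.92 and 4.23 at 14 and 18 weeks. The opaque lenses all lay below both lenses without cataracts, by at least 0.43. Bmp7 was at 5.56 at 2 weeks and 3.66 at 4 weeks, at 3.54 and 3.24 at 8 and 10 weeks, at 3.29 at 12 weeks, and at 3.51 and 3.04 at 14 and 18 weeks. Here too the opaque lenses all lay below, but by only 0.12. The 2-week-old lens exceeded the 4-week-old lens 3.72-fold for Bmp4 and 3.74-fold for Bmp7, although both lenses were without cataracts. Each ligand reached the floor of 5 in the 2-week-old lens alone, so that values from 4 weeks on are near background and differences between them may be understated. Bmp4 differed from the lenses without cataracts by -1.76 ± 0.64 in cortical opacity, by -1.70 in the 12-week-old lens and by -1.53 ± 0.64 in nuclear opacity. Without the 2-week-old lens these differences were -0.82 in cortical and -0.58 in nuclear opacity, and with it as the only clear lens they were -2.71 and -2.48. Bmp7 differed by -1.22 ± 0.61 in cortical opacity, by -1.32 in the 12-week-old lens and by -1.33 ± 0.61 in nuclear opacity, and by -0.27 and -0.38 without the 2-week-old lens or -2.17 and -2.28 with it as the only clear lens. The comparison with opaque lenses thus rests for both ligands mostly on the 2-week-old lens.

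Markers of the ciliary body and of pigment cells were, like the ligands, mostly highest in the 2-week-old lens. The later values of ciliary body markers and ligands ran in parallel only in part. Of the ciliary body and zonule markers 10 of 11 were named on the array, and 9 of them were highest at 2 weeks, which held for 29.0% of the 5168 genes that reached the floor. Their summed linear signal was 1244 in the 2-week-old lens and 633.9 in the 4-week-old lens, and it ran from 224.7 to 417.7 in the opaque lenses. Its lowest point was at 10 weeks, which is also where Bmp4 was lowest, whereas Bmp7 was lowest at 18 weeks, where the marker sum was 337.1. From 4 to 10 weeks the sum and both ligands became lower. All were higher at 12 and again at 14 weeks, by as little as 0.02 for Bmp4 in the last step. From 14 to 18 weeks the sum (343.6 to 337.1) and Bmp7 (3.51 to 3.04) became lower, while Bmp4 became higher (3.92 to 4.23). Optc, the opticin of the vitreous and ciliary body, was at 8.49 at 2 weeks, 7.43 at 4 weeks and 4.87 at 10 weeks. Of the 7 pigment cell markers 2 reached the floor, and 5 were highest at 2 weeks, beside 18.96% of all named genes. The summed signal of the 7 was 302.0 at 2 weeks, 50.9 at 4 weeks and 35.8 to 44.4 in the opaque lenses. Tyrp1, a melanin enzyme, went from 7.62 at 2 weeks to 4.06 at 4 weeks. Rpe65, which defines the retinal pigment epithelium, did not exceed 1.78 on any array. The endothelium markers, all below the floor, had a summed signal of 46.2 at 2 weeks, 30.6 at 4 weeks and 24.9 to 29.5 in the opaque lenses. The corneal and conjunctival epithelium markers went otherwise, and 0 of 5 were highest at 2 weeks. Their summed signal was 64.8 at 2 weeks and highest at 12 weeks (80.9). The lens markers moved less in their sums, although 5 of 8 epithelium and 3 of 7 fibre markers were also highest at 2 weeks. The summed signal of the lens epithelium markers was 3480 at 2 weeks and 3139 at 4 weeks and ran from 2488 to 3053 in the opaque lenses, and that of the fibre markers ran from 25972 to 30981 over all lenses. Among the former Gja1, a gap junction protein, was at 8.13 at 2 weeks, 6.96 at 4 weeks and between 6.42 and 6.80 in the opaque lenses. Its range of 1.72 was the widest of the epithelium markers and not typical of them, and the next widest was 0.61 for Cdh1. Cdh1 was highest at 14 weeks (7.36), Pdgfra at 4 weeks (6.18) and Foxe3 at 12 weeks (6.83). In mice the embryonic ciliary body is a source of Bmp4 and Bmp7, and the part of other eye tissue in the ligand values was not tested.

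**Figure D3:**
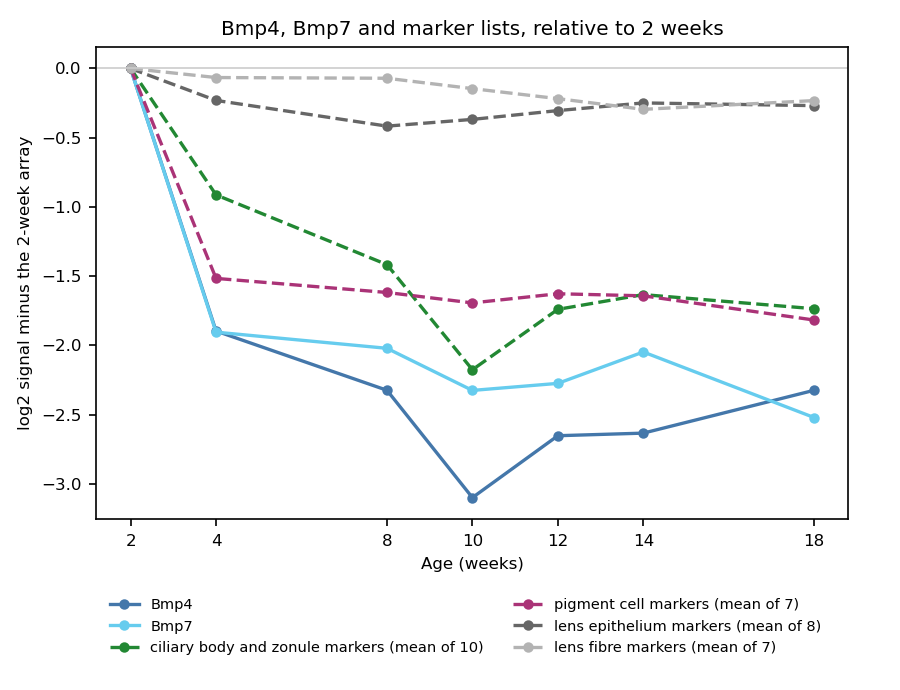
log2 signal minus that of the 2-week array (vertical axis) against age in weeks (horizontal axis), for Bmp4 and Bmp7 (solid) and the mean of 4 marker lists (dashed). Both ligands and the ciliary and pigment markers drop between 2 and 4 weeks, whereas the lens epithelium and lens fibre lists drop less, from a mean of 7.18 at 2 weeks to 6.76 at 8 weeks and from 11.69 at 2 weeks to 11.39 at 14 weeks at their lowest.

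Bmpr1a, the type I receptor, stayed within 0.55 on the log2 scale over all lenses. It was at 5.81 at 2 weeks and 5.79 at 4 weeks, at 5.65 and 5.26 at 8 and 10 weeks, at 5.29 at 12 weeks, and at 5.37 and 5.65 at 14 and 18 weeks. The opaque lenses all lay below the lenses without cataracts, with a gap of 0.14. The differences were -0.35 ± 0.17 in cortical opacity, -0.51 in the 12-week-old lens and -0.29 ± 0.17 in nuclear opacity. These differences moved with single lenses, to -0.54 when the lens of 8 weeks was left out and -0.15 when that of 10 weeks was, for cortical opacity, and to -0.15 for nuclear opacity when that of 14 weeks was. The 18-week-old lens lay above those of 10, 12 and 14 weeks, so that the receptor did not become lower with each stage. Its deposited value was identical to that of the 8-week-old lens, which says little about equal expression.

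The Id genes, common targets of BMP receptors, differed in their course, with Id1 highest at 12 weeks, Id2 at 8 weeks and Id3, like the ligands, at 2 weeks. Id1 was at 6.92 at 2 weeks and 6.26 at 4 weeks, at 6.89 and 6.50 at 8 and 10 weeks, at 7.37 at 12 weeks, and at 6.50 and 6.74 at 14 and 18 weeks. The stages overlapped, apart from the 12-week-old lens, which lay 0.48 above the next opaque lens. The Id1 difference to lenses without cataracts was 0.10 ± 0.26 in cortical opacity, 0.78 in the 12-week-old lens and 0.03 ± 0.26 in nuclear opacity. Its sign turned with the clear lens it was set against, from 0.43 (cortical) and 0.36 (nuclear) with that of 4 weeks alone to -0.23 and -0.30 with that of 2 weeks alone. Id3 was at 5.53 at 2 weeks and 4.96 at 4 weeks, at 5.12 and 4.77 at 8 and 10 weeks, at 4.78 at 12 weeks, and at 4.69 and 4.92 at 14 and 18 weeks. It was highest at 2 weeks, and the 8-week-old lens lay above the 4-week-old lens, so that opaque and clear lenses overlapped. Id3 differed by -0.30 ± 0.23 in cortical, by -0.47 in posterior subcapsular and by -0.44 ± 0.23 in nuclear opacity. Without the 2-week-old lens the cortical and nuclear differences were -0.01 and -0.15. Id2 stayed below the floor, with 3.58 at 2 weeks and 3.33 at 4 weeks, 3.98 and 3.43 at 8 and 10 weeks, 3.95 at 12 weeks, and 3.34 and 3.58 at 14 and 18 weeks. The 8- and 12-week-old lenses were the high ones for Id2, and the other opaque lenses lay within the range of the clear ones.

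The 3 Id genes went up and down on the same arrays. Each was lower at 4 than at 2 weeks, higher at 8, lower at 10, higher at 12, lower at 14 and higher at 18 weeks. The sizes differed, since the step from 10 to 12 weeks was 0.87 for Id1, 0.52 for Id2 and 0.0082 for Id3. Of the 6 steps of Id3, only those from 2 to 4 weeks (-0.58) and from 8 to 10 weeks (-0.36) exceeded its residual standard deviation of 0.25. The step of Id1 from 14 to 18 weeks (0.24) was likewise within that of Id1 (0.27), so that the shared directions rest in part on small steps. The residual standard deviation is itself built from the gaps within stages, these steps among them. It thus serves as a scale only and cannot tell steps from noise. The same 6 directions were found for 2.34% of the 5168 genes that reached the floor and for 2.09% of all named genes, and for no other member. This sequence of directions was noticed in the values and is not a test.

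Smad7, the inhibitory Smad, was flat and below the floor. It was at 3.71 at 2 weeks and 3.70 at 4, 8 and 10 weeks, at 3.67 at 12 weeks, and at 3.47 and 3.69 at 14 and 18 weeks. The 14-week-old lens was the low one, and the values at 4, 8 and 10 weeks were identical. Identical values on 2 or more arrays were found for 48.3% of the genes that reached the floor and for 77.3% of those that did not. They are a property of the deposited summaries and say little about equal expression.

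Of the 8 members, 6 reached the floor of 5 on at least 1 array, whereas Id2 (highest value 3.98) and Smad7 (3.71) did not. Just inside it were Id3 (5.53) and Bmp7 (5.56). In 1 member, Chrdl1, the 5 opaque lenses all lay above both clear lenses, a pattern of 7.6% of the 5168 genes, and in 3, Bmp4, Bmp7 and Bmpr1a, they all lay below, a pattern of 22.8%. The remaining 4 members overlapped. Since the members were chosen on these values, nothing is read from their counts.

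The rest of the pathway was described with a list of 61 further BMP genes, to ask whether it differed between the stages. Of these 56 were named on the array and 19 reached the floor. With limma and adjustment over 5168 genes, 0 of 19 were called in cortical opacity, where 0% of all genes were called in either direction, and 0 of 19 in nuclear opacity, where 2.03% of all genes were called higher and 4.06% lower. The calls among all genes in nuclear opacity (315) rest on every lens of these stages, since leaving out any 1 of the 4 left 0, and 23 were called without the lens of 8 or of 10 weeks. Without adjustment, 3 of 19 passed the threshold of 0.05 in cortical opacity, all lower, where 16.0% of all genes passed. In nuclear opacity 5 did, 1 higher and 4 lower, where 25.1% of all genes passed. The median difference of the 19 genes was -0.09 in cortical opacity, beside -0.07 for all tested genes, and -0.13 in nuclear opacity, beside -0.05. The 5 opaque lenses all lay below the clear ones for 3 of the 19 genes and above them for none, beside the 22.8% and 7.6% of all tested genes. Among the 3 is Nbl1, which passed the floor only through the clear lenses, where it was high. Over age in weeks 1 of 19 was called, and it was higher with age, while 3.66% of all genes were called higher and 5.03% lower.

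Among the secreted antagonists and modulators, 6 of 16 named genes reached the floor. The gene called over age was Crim1, a membrane protein with chordin-type cysteine-rich repeats that binds BMPs. It was at 9.43 at 2 weeks and 9.55 at 4 weeks, at 9.53 and 9.66 at 8 and 10 weeks, at 9.74 at 12 weeks, and at 10.03 and 9.92 at 14 and 18 weeks. The 2 lenses with nuclear opacity were the highest, and the 8-week-old lens overlapped the clear ones. The slope was 0.035 ± 0.009 on the log2 scale per week (adjusted p = 0.0477 by limma, n = 7 arrays). In nuclear opacity Crim1 had a difference of 0.49 ± 0.11 (adjusted p = 0.0607). The call over age ended when any one of the 7 arrays was left out, and likewise without the floor and after quantile normalization or median centring. Nbl1, the DAN antagonist, was at 6.02 at 2 weeks, 5.25 at 4 weeks and between 4.36 and 4.95 in the opaque lenses. It reached the floor in the clear lenses alone, so that its values in the opaque lenses are near background. Its differences of -0.98 ± 0.26 in cortical and -0.69 ± 0.26 in nuclear opacity were not called. Like the ligands, it was highest at 2 weeks. Twsg1, which binds chordin and BMPs, was at 5.99 at 2 weeks and between 5.20 and 5.67 afterwards. Fstl3, a binder of activins, was highest in the 14-week-old lens (5.73), and its nuclear difference of 0.40 ± 0.16 was not called. Noggin (Nog), chordin (Chrd) and Grem1 did not reach the floor on any array.

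Receptors, transducers and targets showed differences that were not called. Acvr2a, a type II receptor, was at 7.11 at 2 weeks and 7.06 at 4 weeks, at 6.57 and 6.28 at 8 and 10 weeks, at 6.34 at 12 weeks, and at 6.37 and 6.67 at 14 and 18 weeks. The opaque lenses all lay below the clear ones, as for Bmpr1a. The difference was -0.66 ± 0.15 in cortical opacity (adjusted p = 0.172 by limma) and -0.57 ± 0.15 in nuclear opacity (adjusted p = 0.0948 by limma). Neo1, the receptor of repulsive guidance molecules, also lay lower in the opaque than in the clear lenses. It differed by -0.51 ± 0.12 in cortical and by -0.36 ± 0.12 in nuclear opacity. Bmpr2, the BMP type II receptor, stayed within 0.13 over all lenses. Smad4 and Smad5, which carry the signal to the nucleus, had nuclear differences of -0.03 ± 0.11 and -0.14 ± 0.13, and the protease Bmp1, which cleaves chordin, one of -0.18 ± 0.19. Among the inhibitors, Tob2 differed by -0.43 ± 0.21, Tob1 by 0.05 ± 0.20 and Ppm1a, a phosphatase of Smads, by 0.30 ± 0.13. Of the target genes, the homeobox gene Msx2 was lowest in the 12-week-old lens (3.67), highest in the 10-week-old lens (5.12) and differed by -0.59 ± 0.22 in nuclear opacity, and Hey1 differed by -0.05 ± 0.18. Both reached the floor in the 10-week-old lens alone, so that these nuclear differences lie between values under the floor. None of the 9 named further ligands, Bmp2 and Bmp6 among them, reached the floor.

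**Figure D4:**
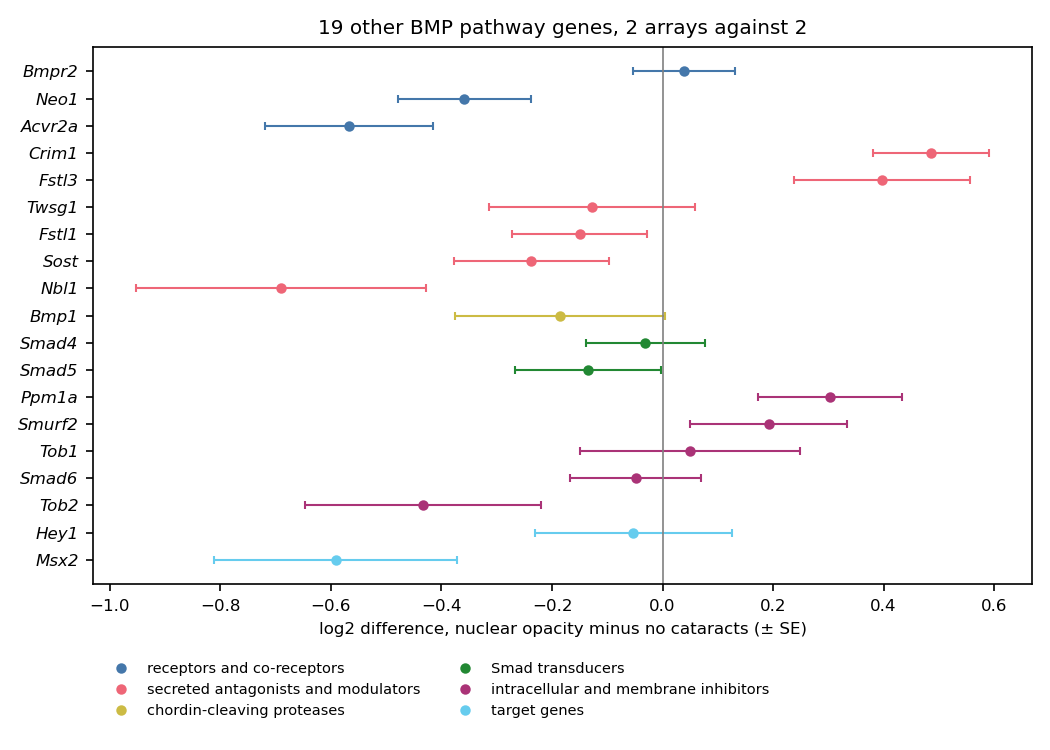
log2 difference between the lenses with nuclear opacity and those without cataracts (horizontal axis, bars are standard errors of the limma fit, 2 arrays against 2) for the 19 further pathway genes that reached the floor, grouped by role. Crim1 (0.49) has the highest value and Nbl1 (-0.69) the lowest, and none was called.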

How the data were processed

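Lenses of ICR rats of 7 ages were measured on GeneChip Rat Gene 2.0 ST arrays. The deposited values are log2 signals of 36685 transcript clusters, which the authors computed in R by RMA, and they were not changed here. RMA shrinks differences near background. Package versions, and which arrays were normalized together, are not given in the sources used here. The 18511 clusters with 1 gene symbol were kept, with symbols updated through Entrez identifiers and RefSeq of assembly GRCr8. Where a gene had more than 1 cluster, that of the highest mean stood for it, which gave 18166 genes. The 5168 genes with a log2 value of 5 or more on any array were fitted.

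Stages were compared with limma 3.58.1 in R 4.3.3 (lmFit, contrasts.fit, eBayes), with 1 mean per stage fitted to all 7 arrays. This leaves 3 residual degrees of freedom, raised to 5.37 by moderation. Age in weeks was fitted as a line, with 5 degrees of freedom, raised to 7.90. Benjamini-Hochberg adjustment ran over the 5168 genes, and genes under 0.05 were called. The fit treats arrays of 1 stage as independent samples, although nothing in the labels says so, and p-values measure only the spread between these arrays. No scan or hybridization batch was given in the sources used here, and the number of arrays limits the precision. The posterior subcapsular stage has 1 array and was described only. Arrays of a control strain were not analysed here. Standard errors come from the limma fit, and those of the members are given without p-values.

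The members and the lists of pathway and marker genes were chosen with earlier results of these data known. Named pathway genes were those called and, in each role, up to 3 of those at or above the floor with the largest range over the arrays. The antagonists and ligands named as below the floor are examples picked after their values were seen. The 5 genes nearest to Chrdl1 were named by rule. Alternatives to the floor, the cluster, the scaling, the prior and the set of arrays were tried. The fit was tested on simulated data. Figures were drawn with matplotlib 3.10.9.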

Additional observations from a re-analysis of the deposited data

How the results depend on the processing

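The count of pathway genes called in cortical opacity was 0 under every alternative run. In nuclear opacity it was 1, Crim1, instead of 0 with a floor of 6 and with a trended and robust prior, and 0 under the other alternatives. Over age it was 0 instead of 1 with no floor, with quantile normalization and with median centring, and it ran from 0 to 1 when arrays were left out in turn. The 1 gene called without the 18-week-old lens was Acvr2a, not Crim1. Calls among all genes moved more. In nuclear opacity they numbered 315, but 0 with no floor or without any 1 of the 2-, 4-, 14- and 18-week-old lenses, 23 without the 8- or the 10-week-old lens and 480 with the trended and robust prior. Over age they numbered 449, but 112 with no floor and 74, 114 or 297 when the lens left out was that of 2, 4 or 14 weeks. They rose to 590 with quantile normalization, to 571 without the 18-week-old lens and to 515 with the trended and robust prior. They were in cortical opacity 12 instead of 0 with a floor of 6 or the trended prior. Some of these settings also change the number of genes or of arrays in the fit, and the cause was not tested.

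The cortical difference of Chrdl1 ran from 0.66 without the 10-week-old lens to 1.10 without the 8-week-old lens, and its nuclear difference moved by less than its standard deviation under each alternative run. Of 96 member differences under alternatives that could move them, 72 moved by less than 1 standard deviation of the gene and 24 moved more. This standard deviation is the moderated one from the fit of all named genes. In 10 the sign turned or the value became 0, and these were of Id1, Id2 and Smad7. Quantile normalization took the median nuclear difference of tested genes from -0.05 to 0.01, and median centring to -0.08. Values near the bottom of the scale (Bmp4 and Bmp7 from 4 weeks on, Id2, Smad7, and Nbl1 in the opaque lenses) are limited by background signal. The labels give no pairing of arrays.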

Other observations

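Among the list genes under the floor, the target gene Runx2, an osteoblast transcription factor, was at 2.73 at 2 weeks and 2.53 at 4 weeks, at 3.22 at both 8 and 10 weeks, at 3.56 at 12 weeks, and at 3.90 and 3.65 at 14 and 18 weeks. The opaque lenses all lay above the clear ones, as for Chrdl1, at values near background that were not tested. Runx2 was singled out after its values were seen.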
